A study of Mus musculus with 8 samples.

Results

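The growth hormone, STAT5 and IGF axis of mouse liver was examined through 10 genes taken by symbol from the array's own annotation: the receptor Ghr, the transcription factors Stat5a and Stat5b, the feedback inhibitors Socs2 and Cish, the hormone Igf1, its carrier Igfals and the binding proteins Igfbp1, Igfbp2 and Igfbp4. These genes had 17 of the 45281 probes on the array. Of these, 15 probes for 8 genes were tested, each detected on all 8 arrays. Stat5b and Igfbp1, with 1 probe each, were not above background on any array.

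The livers came from male C57BL/6J mice on a high-fat diet (60% of energy from fat, begun at 6 weeks of age), 1 Illumina bead array per mouse, with every mouse listed at 25 weeks, which is more than the schedule given here adds up to. In one group, 4 mice were given an antisense oligonucleotide (ASO), a synthetic molecule that pairs with a chosen transcript and reduces its amount, directed at Mogat1, an enzyme that makes diacylglycerol from monoacylglycerol. The other group of 4 received a scrambled control ASO. Each ASO was given into the peritoneal cavity, a systemic route, for 3 weeks with 2 doses weekly of 25 mg/kg, after 14 weeks on the diet. All 8 mice thus carried the diet and an ASO, and no group on normal chow or without an ASO was analysed here.

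In mammals the pituitary releases growth hormone, which binds the receptor GHR on hepatocytes and activates the kinase JAK2. JAK2 phosphorylates STAT5A and STAT5B, and STAT5 dimers then bind DNA at Igf1, Igfals and at the inhibitors Socs2 and Cish, which damp the signal in turn. Male mice release the hormone in pulses, and a male pattern of liver gene expression depends on them. Most circulating IGF1 comes from liver and travels bound to IGF-binding proteins and to the acid-labile subunit, the product of Igfals.

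The promoters of Cish and Igfals are shown because they were the members whose RefSeq promoters (GRCm38.p6, from 250 bases before to 50 bases after each annotated start) held the core STAT5 motif TTCNNNGAA, in capitals below. The motif equals its own reverse complement, so 1 search covers both strands. It lay in 8.3% of all 32851 promoters of that length in the RefSeq table, and in 3 of the 15 promoters found for 9 of the 10 members. No promoter was found for Socs2, so it was not searched for the motif. At least 2 copies lay in 0.457% of all promoters. In Cish, chr9:107296409-107296708 on the + strand, the copies began at bases 1 and 12 counted from the start. In Igfals, the motif began 236 bases before the start in chr17:24877594-24877893 and 58 bases before another annotated start in chr17:24877981-24878280, both on the + strand.
Cish: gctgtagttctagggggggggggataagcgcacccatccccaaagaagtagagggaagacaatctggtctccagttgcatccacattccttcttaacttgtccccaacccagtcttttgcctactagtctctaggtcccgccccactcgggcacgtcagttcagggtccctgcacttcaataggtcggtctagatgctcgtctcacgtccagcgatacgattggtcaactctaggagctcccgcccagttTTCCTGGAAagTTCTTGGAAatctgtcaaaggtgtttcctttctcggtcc
Igfals, the promoter at the upstream start: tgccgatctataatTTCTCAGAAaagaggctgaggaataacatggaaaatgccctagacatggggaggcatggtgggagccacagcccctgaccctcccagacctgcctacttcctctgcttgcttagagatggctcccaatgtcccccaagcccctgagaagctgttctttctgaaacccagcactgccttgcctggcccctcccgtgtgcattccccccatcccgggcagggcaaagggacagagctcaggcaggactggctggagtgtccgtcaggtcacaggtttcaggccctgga
Igfals, the promoter at the downstream start: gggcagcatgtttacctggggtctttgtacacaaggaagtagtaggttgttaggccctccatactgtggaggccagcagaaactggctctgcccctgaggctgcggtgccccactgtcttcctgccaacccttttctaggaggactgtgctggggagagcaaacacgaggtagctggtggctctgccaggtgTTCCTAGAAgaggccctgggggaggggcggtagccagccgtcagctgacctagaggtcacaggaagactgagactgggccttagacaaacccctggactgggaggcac
A match is a run of letters and not a measured binding site.

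The arrays were of similar brightness. Their median signal was 84.3 to 112, and 15788 to 16944 probes per array were detected (detection p under 0.05), and the number detected did not differ past the spread (exact two-sided permutation p = 0.457, n = 4 each, where 0.0286 is the smallest p the design allows). The median signal averaged 98.6 ± 9.98 in Mogat1 ASO arrays and 100.7 ± 11.97 in control arrays (SD, n = 4 each). The single Mogat1 probe was not detected on any array, so the knockdown could not be read. Mogat1 ASO replicate 1 stood apart on the first principal component (43.8% of variance), at 8.36. The other Mogat1 ASO arrays lay at 23.6 to 29.2 and the control arrays at -25.8 to -16.7. On the second component (19.0%) it lay beyond all other arrays, at 34.4. There the rest of its group lay at -15.7 to -0.083 and the control arrays at -12.4 to 13.9. It also had the fewest detected probes of all 8 arrays, 15788. The rest of its group had 16510 to 16944 and the control arrays 15819 to 16864. Of 9 hepatocyte markers, 6 were tested and none passed the threshold, while the single probes for Alb, Fgb and Tat were not detected on any array, so an undetected probe on this platform does not show that a gene was silent.

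Levels below are normalized log2 levels, and differences are Mogat1 ASO minus control ASO with the standard error (SE) of the limma fit. "Called" means an adjusted p under 0.05 (Benjamini-Hochberg over all 16487 probes tested). Where a gene had several probes, probe 1 is the brightest and stands for the gene in counts. By that rule, 2 of the 8 tested members were called lower, Ghr and Stat5a, and none was called higher. Over all 11686 genes tested, 6.12% were called lower and 7.14% higher. The median difference was -0.42 over the 8 members (-0.54 without Mogat1 ASO replicate 1, which stood apart) and -0.0036 over all tested genes. In whole liver, fewer cells of a type and less RNA per cell cannot be told apart.

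**Figure D1:**
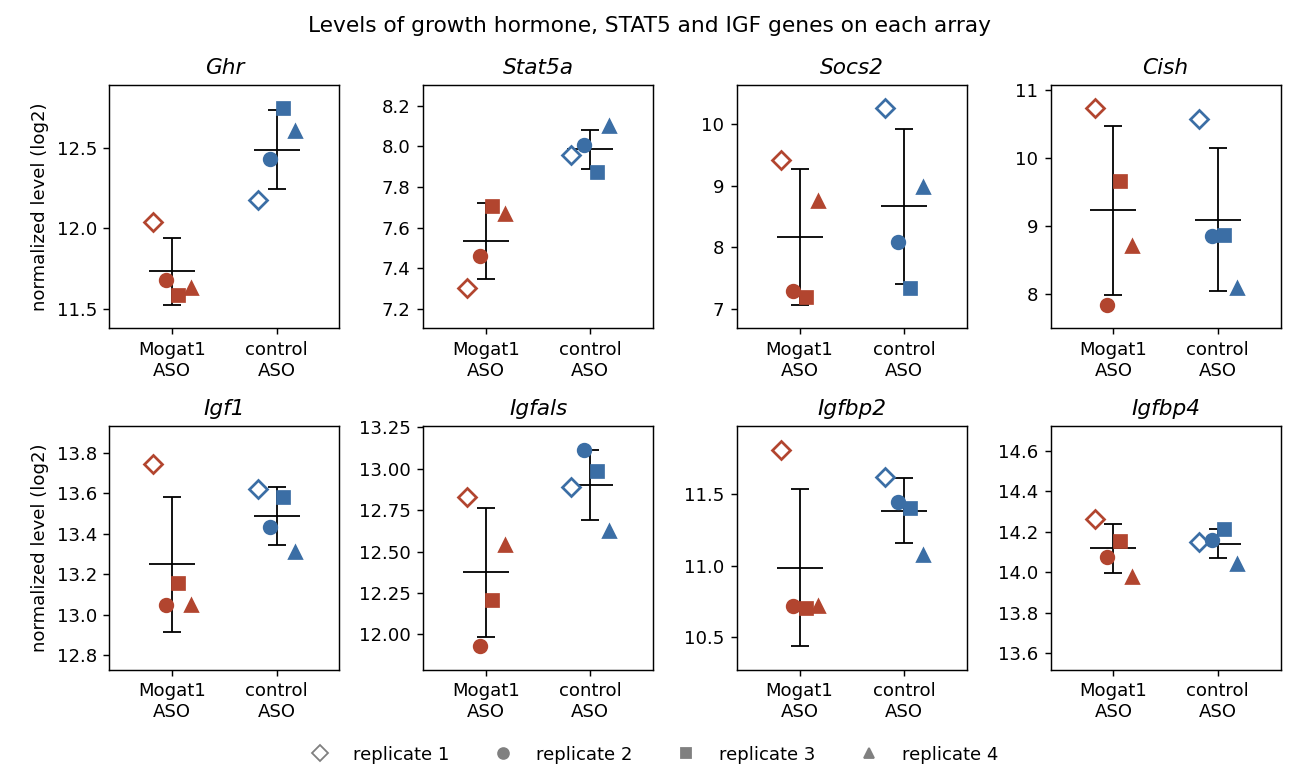
Normalized log2 level of the brightest probe of each tested gene (vertical axis, a separate range per panel) on each array, Mogat1 ASO left and control ASO right. Symbols mark the replicate number, which was not taken to pair the mice, and bars show the mean and SD of 4 arrays. The Mogat1 ASO and control ASO groups do not overlap for Ghr and Stat5a, and the open diamond of Mogat1 ASO replicate 1 is the highest of its group in every panel except Stat5a.

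Ghr, the receptor on which the axis depends, fell in Mogat1 ASO livers. Its probe 1 read 12.04, 11.68, 11.59 and 11.63 in Mogat1 ASO livers, against 12.18, 12.43, 12.75 and 12.61 in control livers. All 4 Mogat1 ASO livers lay below all 4 control livers. The difference was -0.76 (SE 0.13), or 1.69-fold lower (limma adjusted p = 0.0052). Leaving out any 1 array kept the call, with an adjusted p of at most 0.0214.

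Of the other Ghr probes, probe 2 was called lower and probe 3 was not. Probe 2 gave 9.17, 9.42, 9.01 and 9.05 in Mogat1 ASO livers, against 9.23, 9.91, 9.95 and 9.94 in control livers. The control value of 9.23 came from control ASO replicate 1, which lay inside the Mogat1 ASO range. The difference was -0.59 (SE 0.16, limma adjusted p = 0.0367), a call that ended without Mogat1 ASO replicate 3 or 4 or control ASO replicate 2, 3 or 4 (adjusted p = 0.0931 to 0.108), and without a variance trend in the fit (0.0501). Probe 3 read 9.58, 8.75, 9.10 and 8.96 in Mogat1 ASO livers, against 9.39, 9.31, 9.17 and 8.93 in control livers, and the groups overlapped. Its difference was -0.11 (SE 0.17, adjusted p = 0.731).

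Whether probes 1 and 3 of Ghr changed unequally was tested on their difference within each array, a test chosen after the values were seen. That difference averaged 2.64 ± 0.21 in Mogat1 ASO livers and 3.29 ± 0.41 in control livers (SD, n = 4 each, exact two-sided permutation p = 0.0571, and 0.0571 after adjustment over 2 such comparisons). The unequal change was therefore not past the threshold. The probe sequences were not used here, so which Ghr transcripts each probe reads was not determined.

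Stat5a, one of the transcription factors that carry the signal to the nucleus, also fell. Its probe 1 read 7.30, 7.46, 7.71 and 7.67 in Mogat1 ASO livers, against 7.96, 8.01, 7.87 and 8.10 in control livers. Every Mogat1 ASO liver lay below every control liver. The difference was -0.45 (SE 0.12), or 1.37-fold lower (limma adjusted p = 0.0281). The call ended with median scaling in place of quantile normalization (adjusted p = 0.147), with no filter on dim probes (0.0589), and without control ASO replicate 2 or 4 or Mogat1 ASO replicate 2 (0.0762, 0.0765 and 0.0681).

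The dimmer Stat5a probe 2 read 5.78, 5.75, 5.50 and 5.66 in Mogat1 ASO livers, against 5.99, 5.82, 6.11 and 6.40 in control livers. These groups did not overlap either, but the difference of -0.41 (SE 0.14) was not called (adjusted p = 0.0888). Groups that did not overlap with Mogat1 ASO below were found for 8.81% of all tested genes. The Stat5b probe had a detection p of 0.370 to 0.897 over the 8 arrays, so the closely related STAT5B, held to be the main form in liver, could not be read. STAT5A and STAT5B are closely similar proteins, and cross-reading between their probes was not tested.

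Socs2 and Cish encode SH2-domain proteins that growth hormone induces and that bind and restrain its receptor complex. Neither was called, and both varied widely between mice of the same group. Socs2 read 9.42, 7.28, 7.20 and 8.76 in Mogat1 ASO livers, against 10.25, 8.09, 7.33 and 8.97 in control livers. Each group spanned low and high livers, and the ranges overlapped from 7.33 to 9.42. Control ASO replicate 1, at 10.25, lay above every Mogat1 ASO liver. From high to low, the replicate numbers ran 1, 4, 2 and 3 in both groups. The difference was -0.50 (SE 0.62, adjusted p = 0.654). Without control ASO replicate 1 it was 0.034, and without Mogat1 ASO replicate 1 it was -0.92, neither of them called. A further probe, listed on the array as Cish2, an older name of Socs2, was not detected on any array.

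Cish read 10.73, 7.84, 9.66 and 8.70 in Mogat1 ASO livers, against 10.58, 8.85, 8.86 and 8.08 in control livers. The highest liver of each group was its replicate 1, and the lowest values of the groups lay close together. The difference was 0.14 (SE 0.60, adjusted p = 0.908), and its sign turned without Mogat1 ASO replicate 1 (-0.36), Mogat1 ASO replicate 3 (-0.0020) or control ASO replicate 4 (-0.20).

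The spread of these feedback genes set them apart from most of the array. The within-group SD of Socs2 was 1.18, larger than in 99.8% of tested genes, and only 26 of 11686 genes had a larger one. That of Cish was 1.15, with 32 genes above it, against a median of 0.18 over all tested genes. The spread was present in Mogat1 ASO livers (SD 1.10 for Socs2 and 1.24 for Cish) and in control livers (1.26 and 1.06). Relative to the control mean of each gene, Mogat1 ASO replicate 1 was high for both (0.76 for Socs2 and 1.64 for Cish), and control ASO replicate 1 was high for both as well. Mogat1 ASO replicate 2 was low for both (-1.38 for Socs2 and -1.25 for Cish). The genes parted in Mogat1 ASO replicate 3, at -1.46 for Socs2 and 0.57 for Cish.

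**Figure D2:**
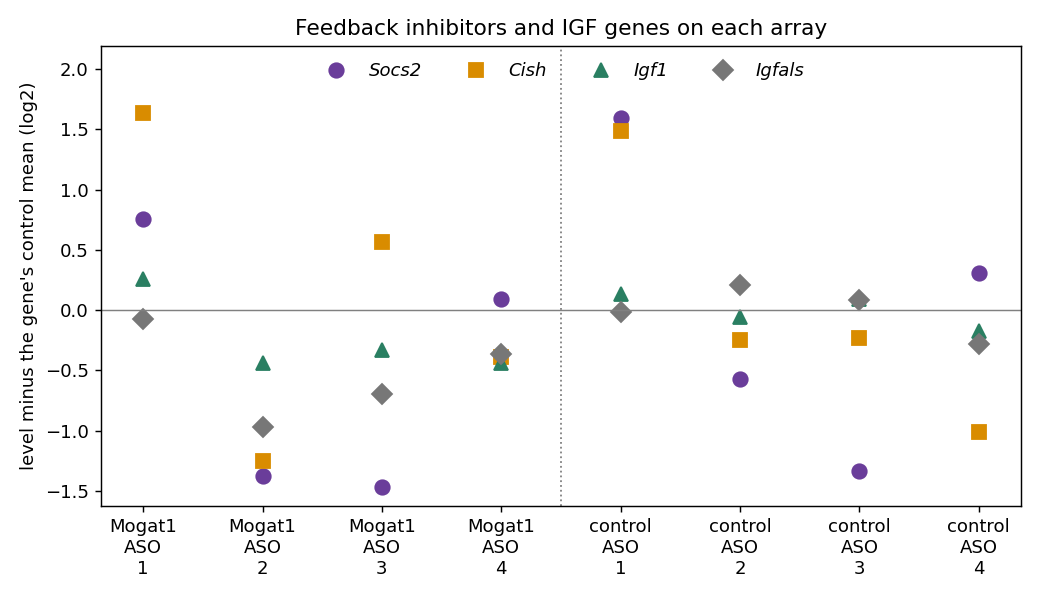
Level of Socs2, Cish, Igf1 and Igfals (probe 1) on each array minus the mean of that gene over the control arrays (log2, vertical axis), with the 4 Mogat1 ASO arrays left of the dotted line and the 4 control arrays right. Socs2 and Cish range over more than 2 log2 units in each group, while Igf1 and Igfals stay within 1 log2 unit of their control means.

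The other members varied less than Socs2 and Cish. The within-group SD of Ghr was 0.23, larger than in 70.8% of tested genes, and that of Stat5a was 0.15, larger than in 35.7%. Igfbp4 had the smallest, 0.10, larger than in 11.6%. The genes nearest to Socs2 in profile were Scara5, S100a8 and Lpin1. Their root mean square difference from Socs2 was 0.54, 0.62 and 0.63 log2 units over 8 arrays, each gene taken relative to its control mean, against a median of 1.10 over all tested genes.

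Igf1, the main growth-promoting output of the axis, was not called on any of its 3 probes. Probe 1 read 13.74, 13.05, 13.16 and 13.05 in Mogat1 ASO livers, against 13.62, 13.43, 13.58 and 13.31 in control livers. Of the Mogat1 ASO livers, 3 lay below all controls, and replicate 1 lay above all of them. The difference was -0.24 (SE 0.15, adjusted p = 0.328). Without Mogat1 ASO replicate 1 it was -0.40 (SE 0.09) and was called (adjusted p = 0.0122).

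The other Igf1 probes gave smaller differences. Probe 2 read 12.15, 11.61, 11.46 and 11.62 in Mogat1 ASO livers, against 11.85, 11.84, 11.94 and 11.59 in control livers, with a difference of -0.10 (SE 0.14, adjusted p = 0.704). Probe 3 read 11.76, 11.17, 11.08 and 11.32 in Mogat1 ASO livers, against 11.36, 11.10, 11.30 and 11.28 in control livers, with a difference of 0.07 (SE 0.14, adjusted p = 0.787). Replicate 1 was again the highest Mogat1 ASO liver on both, and the groups overlapped. Without it the differences were -0.24 and -0.07, neither called. Probe 1 minus probe 3 within an array averaged 1.92 ± 0.15 in Mogat1 ASO livers and 2.22 ± 0.13 in control livers (SD, n = 4 each, exact two-sided permutation p = 0.0571, adjusted 0.0571). The genes nearest to Igf1 in profile were Prdx4, Sdc2 and Rbm4b, each at a root mean square difference of 0.08 over 8 arrays, against a median of 0.34 over all tested genes, and none of them was called.

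Igfals, which encodes the acid-labile subunit that holds IGF1 in long-lived complexes in blood, was not called with all arrays. It read 12.83, 11.93, 12.21 and 12.54 in Mogat1 ASO livers, against 12.89, 13.12, 12.99 and 12.62 in control livers. Replicate 1 of the Mogat1 ASO group lay inside the control range, and the other 3 lay below it. The difference was -0.53 (SE 0.17), or 1.44-fold lower (adjusted p = 0.0714). Without Mogat1 ASO replicate 1 it was -0.68 (SE 0.15) and was called (adjusted p = 0.0106), and with array weights it was -0.64 (adjusted p = 0.0119).

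Igfbp2, an IGF-binding protein secreted by liver, showed the sharpest split within the Mogat1 ASO group. Its probe 1 read 11.81, 10.72, 10.70 and 10.72 in Mogat1 ASO livers, against 11.62, 11.45, 11.40 and 11.08 in control livers. Its probe 2 read 11.43, 9.99, 9.91 and 9.99 in Mogat1 ASO livers, against 11.11, 11.19, 11.01 and 10.76 in control livers. On both probes replicate 1 was above every control liver, and the other 3 Mogat1 ASO livers lay close together below every control liver.

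Neither Igfbp2 probe was called with all arrays. The difference was -0.40 (SE 0.23, adjusted p = 0.286) for probe 1 and -0.69 (SE 0.29, adjusted p = 0.144) for probe 2. Without Mogat1 ASO replicate 1 they were -0.67 (adjusted p = 0.0035) and -1.05 (adjusted p = 2.2e-04), and both were called with array weights (adjusted p = 0.0379 and 0.0090).

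Igfbp4, which encodes another binding protein made by liver, was level across the groups. Its probe 1 read 14.26, 14.08, 14.15 and 13.98 in Mogat1 ASO livers, against 14.15, 14.16, 14.21 and 14.04 in control livers. The difference was -0.02 (SE 0.08, adjusted p = 0.888) for probe 1 and -0.02 (SE 0.08, adjusted p = 0.899) for probe 2, within which both signs occurred when 1 array was left out. Igfbp1, which insulin represses in liver, had a detection p of 0.104 to 0.702 over the 8 arrays, so no level or fold is given.

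**Figure D3:**
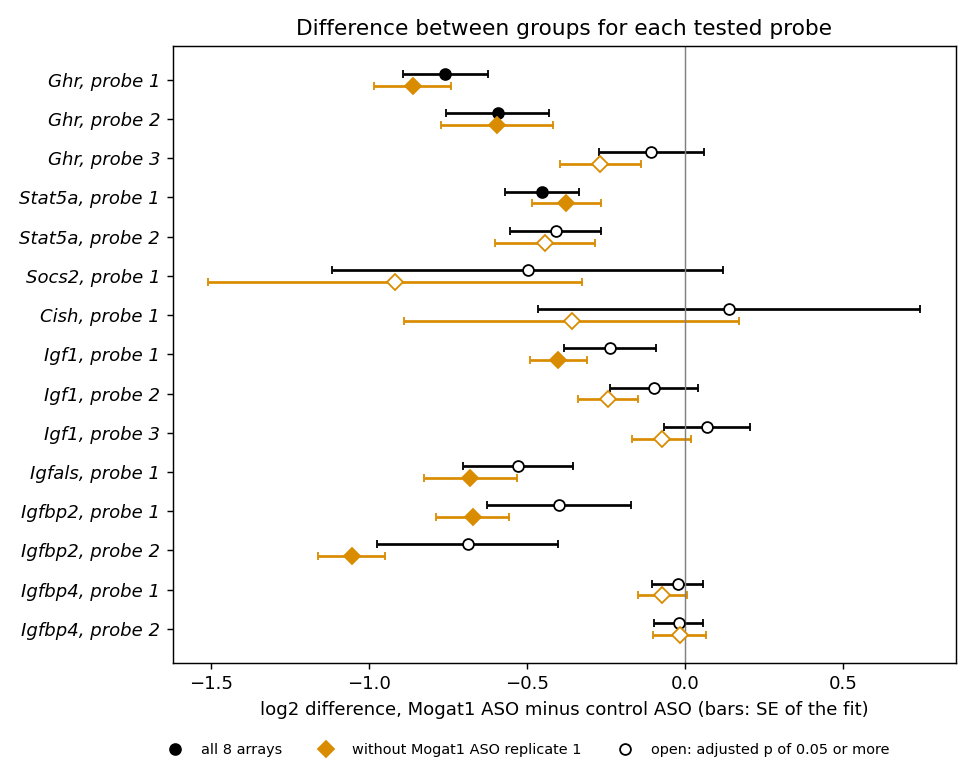
Log2 difference, Mogat1 ASO minus control ASO, with the SE of the limma fit, for the 15 tested probes (rows), with all 8 arrays (black) and without Mogat1 ASO replicate 1 (orange). Filled symbols are called. Ghr probes 1 and 2 and Stat5a probe 1 are called either way, while Igf1 probe 1, Igfals and both Igfbp2 probes are called without that array and not with it.

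The place of Mogat1 ASO replicate 1 decided the count for the axis. It was the highest of the 4 Mogat1 ASO arrays for 7 of the 8 tested members, where over all tested genes it was the highest for 35.1%. Without it, 5 of the 8 members were called lower (Ghr, Stat5a, Igf1, Igfals and Igfbp2), against 9.65% of all tested genes. Leaving out the highest array of a group lowers the mean of that group by construction. The count of 5 is therefore not independent of the choice of array. The other 3 Mogat1 ASO livers lay below all controls for the same 5 members, which also held for 15.3% of all tested genes. With single arrays left out, the count of members called lower was 1 to 5. It was 1 without control ASO replicate 2 or 4 or Mogat1 ASO replicate 2, where Stat5a lost its call. What sets replicate 1 apart was not tested.

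Of the other genes of growth hormone receptor signalling, 16 of 24 were tested, and 2 rose, 1 fell and 13 did not pass, with a median difference of 0.01. Over all tested genes, 7.14% were called higher and 6.12% lower. Jak2, the receptor's kinase, differed by 0.18 (SE 0.10, adjusted p = 0.288), and Socs3, another feedback inhibitor, by -0.39 (SE 0.29, adjusted p = 0.416). Prlr, the receptor for the related hormone prolactin, was 2.61-fold lower (difference -1.39, SE 0.28, adjusted p = 0.0092). It read 7.76, 8.17, 7.74 and 9.05 in Mogat1 ASO livers, against 9.76, 9.91, 9.54 and 9.03 in control livers, so that the groups overlapped at 1 array each. Another Prlr probe differed by -0.66 and was called, and the remaining probes, at -0.50 and -0.08, were not. With the mean of its probes, Prlr differed by -0.66 (adjusted p = 0.0174).

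Among the genes that rose was Sirpa, an inhibitory receptor of myeloid cells that is also a JAK2 substrate. Sirpa was 1.63-fold higher (difference 0.71, SE 0.10, adjusted p = 0.0017), with all 4 Mogat1 ASO livers above all controls. A dimmer Sirpa probe differed by 0.58 and was not called (SE 0.21, adjusted p = 0.101). Of 10 Kupffer cell and macrophage markers, 9 were tested. Of these, 3 rose, the complement genes C1qa, C1qb and C1qc, and none fell, against 7.14% and 6.12% of all tested genes. The mean level over the tested markers was 9.64 to 10.24 in Mogat1 ASO livers and 9.40 to 9.78 in control livers. Clec4f, which defines Kupffer cells, differed by -0.10 (adjusted p = 0.632), and the Cd5l probe was not detected. The part of these cells in the Sirpa result was not tested.

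In the rest of the IGF system, 12 of 19 genes were tested, 1 rose and none fell, with a median difference of -0.06. Of all tested genes, 7.14% rose and 6.12% fell. Igfbp3, the main IGF carrier of adult blood, which in rat liver is made by non-parenchymal cells, was 2.33-fold higher (difference 1.22, SE 0.34, adjusted p = 0.0364). It read 7.59, 7.78, 8.19 and 7.64 in Mogat1 ASO livers, against 7.74, 6.23, 5.79 and 6.56 in control livers. Of the control livers 3 lay below all Mogat1 ASO livers, and control ASO replicate 1 lay among them.

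The Igfbp3 call was fragile. A dimmer Igfbp3 probe differed by 0.65 and was not called (SE 0.23, adjusted p = 0.0896). The call on the brighter probe ended under robust variance estimation (adjusted p = 0.0872) and without any 1 of 6 arrays (0.0685 to 0.106), all but replicate 1 of each group. Igfbp7 differed by 0.30 (SE 0.16, adjusted p = 0.262), the receptor Igf1r by -0.06 (SE 0.20, adjusted p = 0.866) and Igf2r by -0.11 (SE 0.11, adjusted p = 0.542). Of 9 sinusoidal endothelial markers, all tested, Lyve1 rose and Stab2 fell, against 7.14% and 6.12% of all tested genes. Their mean level over the list was 8.76 to 8.87 in Mogat1 ASO livers and 8.59 to 8.74 in control livers. Their part in the Igfbp3 result was not tested.

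Among 18 transcription factors tied to the growth hormone response of liver, 13 were tested, 3 fell and none rose, with a median difference of -0.23. Over all tested genes, 6.12% fell and 7.14% rose. Onecut2, a hepatic factor of the HNF6 family, was 1.47-fold lower (difference -0.55, SE 0.08, adjusted p = 0.0025). Tox was 1.72-fold lower (difference -0.78, SE 0.20, adjusted p = 0.0291). The groups did not overlap for Onecut2. The call for Tox ended with median scaling (adjusted p = 0.0538) and without any of 5 arrays. Without Mogat1 ASO replicate 1, 6 of the 13 were called lower, against 9.65% of all tested genes.

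Genes of the male pattern, which need growth hormone pulses and STAT5, fell in larger number. Of 29 listed, 23 were tested, 11 fell and none rose, with a median difference of -1.13, and 15 were called lower without Mogat1 ASO replicate 1. The share of all tested genes called lower was 6.12% with all arrays and 9.65% without that array. The male-biased list was drawn up with earlier results of these samples known, so its direction is not independent evidence. The leading members were Obp2a, a lipocalin, and Serpina1e, a protease inhibitor. Obp2a read 5.34, 5.18, 5.39 and 5.36 in Mogat1 ASO livers, against 9.85, 10.34, 10.47 and 10.35 in control livers. All control arrays detected it, but only 2 of the 4 arrays from Mogat1 ASO livers did, so its Mogat1 ASO level lay near background. The size of its fall depends on how background is treated, with a difference of -4.93 here (adjusted p = 1.2e-08), -4.08 with an offset of 50 and -3.47 without background correction. Serpina1e averaged 11.67 ± 2.53 in Mogat1 ASO livers and 15.67 ± 0.24 in control livers (SD, n = 4 each, limma SE of the difference 0.93, adjusted p = 0.0182), and read 15.43, 10.05, 10.39 and 10.81 in Mogat1 ASO livers, against 15.80, 15.35, 15.88 and 15.65 in control livers. Its Mogat1 ASO replicate 1 thus stood at the control level, while the other 3 lay far below, and without it the difference was -5.25. Mup4, a major urinary protein, and the serpin gene Serpina12 were 4.20-fold and 4.08-fold lower (differences -2.07, SE 0.35, and -2.03, SE 0.23). Serpina1e and Mup4 have near-identical copies, so their values are uncertain. Serpina1e lost its call under robust variance estimation (adjusted p = 0.0926) and without control ASO replicate 3 or Mogat1 ASO replicate 3 or 4 (0.0533 to 0.0607).

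Genes with female-biased expression, which male pulses hold down, did not rise. Of 21 listed, 8 were tested, 2 fell and none rose, with a median difference of -1.04: the steroid hydroxylase Cyp17a1 (-3.08, SE 0.39, adjusted p = 9.8e-04, and -2.45 without background correction) and the neurotrophin receptor Ntrk2 (-1.05, SE 0.26, adjusted p = 0.0234). The Ntrk2 call ended without control ASO replicate 1 or 4 or Mogat1 ASO replicate 3 or 4 (adjusted p = 0.0511 to 0.0711). The other 6 tested genes of this list were not called. With single arrays left out, 1 to 3 were called lower, and 1 was called higher without Mogat1 ASO replicate 1. Of all tested genes, 6.12% were called lower and 7.14% higher with all arrays.

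Targets of FOXO1 that insulin represses, the class to which Igfbp1 belongs, were examined beside the axis. Of 9 listed, 7 were tested, 1 fell and none rose, with a median difference of -0.26. Without Mogat1 ASO replicate 1, 2 were called lower. The share of all tested genes called lower was 6.12% with all arrays and 9.65% without that array. G6pc, whose product releases free glucose from hepatocytes, differed by -1.13 (SE 0.24, adjusted p = 0.0119). It was lowest in Mogat1 ASO replicate 1, at 10.09, against 11.15 to 11.42 in the rest of that group. Without that array the difference was smaller, at -0.83, and was still called (limma adjusted p = 3.4e-04). Angptl4, the brightest of the others, differed by -0.11 (SE 0.18, adjusted p = 0.756).

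**Figure D4:**
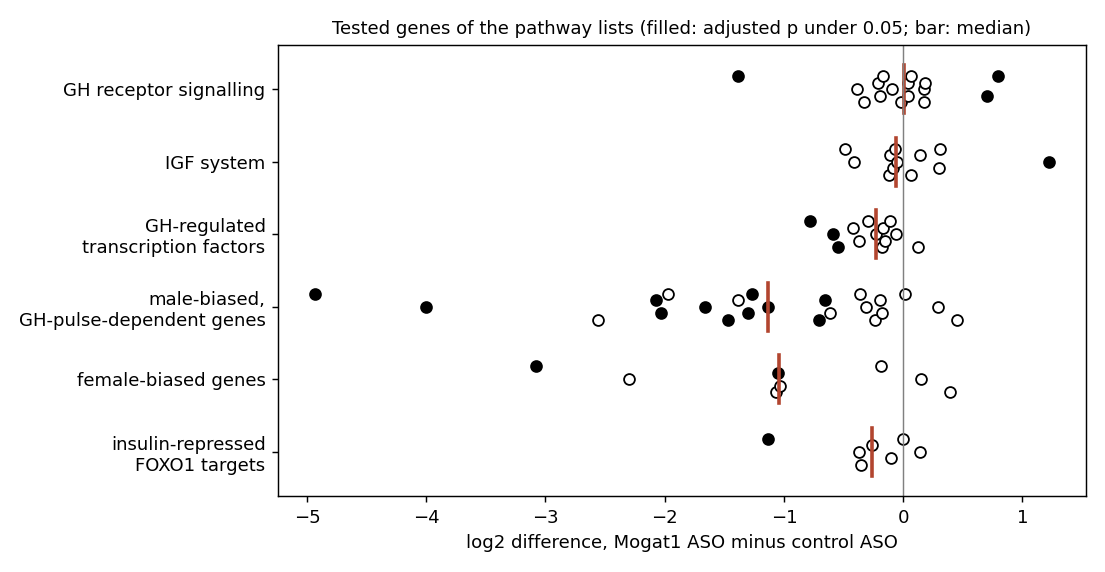
Log2 difference, Mogat1 ASO minus control ASO (horizontal axis), of every tested gene of 6 lists (rows), with called genes filled and the median of each list as a bar. The lists of receptor signalling and of the IGF system centre at 0.01 and -0.06, while male-biased and female-biased genes centre at -1.13 and -1.04. Of the male-biased genes 11 of 23 tested were called lower, and of the female-biased genes 2 of 8.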

How the data were processed

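Liver RNA of 8 mice was measured on Illumina bead arrays. Per the file headers, the deposited table holds, probe by probe, a signal intensity without normalization and its detection p-value on every array. The deposited series table holds processed intensities that, judged from the values, are background-subtracted and share one distribution across arrays (medians 5.75 to 5.78, 38.0% to 38.1% below 0). The software behind it is not given in the sources, and it served only as an alternative. Intensities were corrected and quantile normalized with neqc of limma 3.58.1 (R 4.3.3, data.table package version 1.17.8), with negative controls inferred from detection p-values and an offset of 16. A probe was kept when at least 4 of the 8 arrays detected it (p under 0.05). The 16487 probes kept entered lmFit and then eBayes, with a variance trend, two-sided. The brightest probe stood for a gene. Precision is limited by the number of mice, since arrays count no reads.

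Members and lists were chosen with earlier results of these data known. Named were all members, up to 4 called genes of each pathway list with the largest changes (where under 2 were called, the brightest others were added), and the 3 genes nearest to Igf1 and to Socs2; Jak2, Socs3, Igf1r, Igf2r and the cell markers named were picked for their role, after their values were seen. Some called genes of these lists are counted but not reported by name here. Symbols were updated through RefSeq (GRCm38.p6): 27740 probes were current, 8037 updated, 122 ambiguous and 9382 unmatched. Promoters were searched and figures drawn in Python 3.11.15 with matplotlib 3.10.9. Tested on simulated data for this comparison (16487 probes), the fit recovered 55.2% of 67 probes changed 1.5-fold, 89.6% of 67 changed 2-fold and 100% of 66 changed 4-fold, with 11 false calls among 174. The simulated noise was independent between probes, so no simulated array stood apart as Mogat1 ASO replicate 1 did. The rates need not hold for the real arrays. Alternatives were background correction, offset, scaling, source, filter, variance model, array weights, probe averaging, a replicate block and leaving out each array. Over all tested probes, same-numbered arrays of the groups deviated together weakly or not at all (correlations of -0.03 to 0.20), so the numbers were not taken as pairs. The value of 0.20 was that of replicate 1, and Mogat1 ASO replicate 1 had its highest correlation with control ASO replicate 1. For replicates 2, 3 and 4 the highest correlation was with a control array of another number. The relation was not weak for every gene. With the replicate number as a block, the SE of Cish was 0.26 against 0.60 without it, and that of Cyp17a1 0.19 against 0.39. That of Ghr probe 1 was 0.15 against 0.13. Whether the numbers mark a shared condition was not tested.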

Additional observations from a re-analysis of the deposited data

Results flagged for a closer look

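Within groups of 4 arrays, 62 groups of values were examined for an array far from the other 3 (a gap above Dixon's critical value), which chance does in about 1 group in 20, and 6 were found. Mogat1 ASO replicate 1 lay above its group in 4 of them: Igf1 probe 1 at 13.74 (others 13.05 to 13.16), Igfbp2 probe 1 at 11.81 (others 10.70 to 10.72), Igfbp2 probe 2 at 11.43 (others 9.91 to 9.99) and Serpina1e at 15.43 (others 10.05 to 10.81). Ghr probe 2 was low in control ASO replicate 1, at 9.23 (others 9.91 to 9.95). G6pc was high in control ASO replicate 3, at 12.27 (others 12.09 to 12.12).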

How the results depend on the processing

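Ghr probe 1 kept its call under every alternative run. The count of members called lower was 2 with all arrays, 4 with array weights, 1 with median scaling, 1 with no filter, and 1 to 5 with single arrays left out. Of all tested genes 1549 were called (834 higher, 715 lower), against 2610 (1347 and 1263) with array weights, 950 (459 higher) with median scaling and 886 to 2261 (470 to 1133 higher, 416 to 1128 lower) with single arrays left out. Under robust variance estimation none of the IGF list and 1 male-biased gene were called higher (0 and 1), and with array weights 1 female-biased gene was. With single arrays left out, 2 to 6 transcription factors, 8 to 15 male-biased, 1 to 3 female-biased and 1 to 2 FOXO1 genes were called lower, and 0 to 1 genes of the IGF, male-biased and female-biased lists higher. The sign turned among uncalled values: Angptl4 (0.033 with array weights), and, with single arrays left out, Angptl4 (-0.32 to 0.0070), Cish (-0.36 to 0.64), Socs2 (-0.94 to 0.034), Ghr probe 3 (-0.27 to 0.0088), Igf1 probe 3 (-0.073 to 0.15) and Igfbp4 (-0.071 to 0.025 on probe 1 and -0.067 to 0.011 on probe 2). The causes were not tested. With the replicate number as a block, 2 members and 1489 genes were called, and no call for a member changed. A block by array chip was not run because the headers used here name no chip. Probes near background, Stat5b and Igfbp1 among them, set the limit of what could be read.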

Other observations

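Bcl6, a transcriptional repressor that growth hormone is known to lower in liver and that competes with STAT5 for its sites, varied between mice as widely as Socs2 and Cish; it was singled out after its values were seen. It read 8.92, 10.43, 9.06 and 10.55 in Mogat1 ASO livers, against 7.86, 10.57, 11.12 and 11.09 in control livers. The lowest liver of each group was its replicate 1, the same livers that held the highest Cish and Socs2 of their groups. Mogat1 ASO replicate 3 was nearly as low for Bcl6, at 9.06, but held the lowest Socs2 of its group (7.20), with Cish at 9.66. Its within-group SD was 1.26, with 20 of 11686 genes above it, and the groups did not differ past that spread (difference -0.42, SE 0.66, limma adjusted p = 0.728).

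Part of the male-biased genes split on Mogat1 ASO replicate 1. For 8 of the 23 tested, all 4 Mogat1 ASO livers lay below all controls (Obp2a, Serpina12, Mup4, Elovl3, C6, Mup5, Nudt7 and Cyp2d9), as for 8.81% of all tested genes. For 7 others, replicates 2 to 4 lay below all controls and replicate 1 did not (Serpina1e, Hsd3b5, Cyp4a12b, Egfr, Susd4, Cyp7b1 and C8a), as for 6.48% of all tested genes. The remaining 8 were in neither class, and Ugt2b1 among them ran the other way, with all 4 Mogat1 ASO livers above all controls (difference 0.45, SE 0.14, adjusted p = 0.0597, not called). Hsd3b5, a steroid dehydrogenase of male liver, read 13.66, 7.33, 8.63 and 12.38 in Mogat1 ASO livers, against 13.42, 12.67, 13.30 and 12.84 in control livers. Egfr, the epidermal growth factor receptor, read 12.72, 10.37, 9.58 and 11.29 in Mogat1 ASO livers, against 12.77, 12.26, 12.20 and 12.27 in control livers. Igf1, Igfals and Igfbp2 were in the class with replicate 1 apart, and Ghr and Stat5a in the class with all 4 below.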
